A study of Mus musculus with 6 samples.

Results

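Complement genes were examined in single cells of the mouse brain: 9 of the 27514 genes listed for both preparations, picked by name to span the cascade. They were *C1qa*, *C1qb*, *C1qc* and *C1ra* (the C1 complex), *C4b* and *C3* (central components), *C3ar1* and *C5ar1* (receptors) and *Serping1* (an inhibitor), and all 9 were listed in each of the 6 libraries. The cortical preparation (prep 1) came from female C57Bl/6J mice aged 3 weeks and the hippocampal preparation (prep 3) from mice aged 5 weeks. In each, 3 mice were perfused, the tissue of every mouse was digested and freed of myelin on its own, and the cells were then joined into 1 suspension that was run as 3 technical replicates without sorting. Each preparation is thus 1 biological sample. No p-value was computed, the SD describes the 3 technical replicates, and region, age, preparation and gene annotation cannot be told apart.

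Complement is a cascade of secreted proteins that tags targets for removal. In the classical pathway C1q, built from 3 chains encoded by *C1qa*, *C1qb* and *C1qc*, binds a target and carries the proteases C1r and C1s, which cleave C4 and C2. The resulting enzyme cleaves C3, whose fragments mark the target and signal through the C3a receptor, and further cleavage releases C5a, the ligand of the C5a receptor. C1 inhibitor, the product of *Serping1*, inactivates C1r and C1s. In the brain, C1q and C3 are known for their part in the removal of synapses by microglia.

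For each replicate the molecules of every gene were counted per cell by their unique molecular identifiers (UMIs), with library totals of 39662203 to 50024850 UMIs, and 13320 cortical and 14210 hippocampal cells were kept. Levels are CPM, that is, UMIs summed over the cells of a class and scaled by the total UMIs of these cells. Each molecule counts once whatever the length of its transcript. Levels of different genes are set side by side on this basis, without correction for other differences in capture or mapping. Cell classes were named "-like" from marker lists that hold no complement gene, after clustering without complement genes. All 11 microglial markers counted in 9 of the 10 microglia-like clusters and 10 of them in the other. All 9 macrophage markers counted in the macrophage-like cluster of each region. The hippocampal libraries shared more barcodes with each other than the cortical ones, 749 of the kept cells (5.27%) against 71 (0.53%), and these lay mostly in the monocyte-like and epithelial-like classes, of which 40.1% and 67.6% of cells carried a shared barcode.

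The 3 C1q genes lie in a single cluster on chromosome 4 (GRCm38, GENCODE M21). *C1qb* occupies chr4:136880129-136886187, *C1qc* chr4:136889804-136893065 and *C1qa* chr4:136895917-136898803, all on the minus strand and within 18675 bases. The upstream sequences below are shown because these neighbours had similar proportions in the microglia-like cells of both regions. They come from RefSeq (GRCm38.p6), are written 5′ to 3′ on the gene's strand, and hold only bases outside annotated exons. Capitals mark GAGGAA on either strand, the core of sites bound by the myeloid factor PU.1. The *C1qb* stretch is chr4:136886201-136886450, that of *C1qc* chr4:136893066-136893164 and that of *C3ar1* chr6:122856162-122856407.

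C1qb: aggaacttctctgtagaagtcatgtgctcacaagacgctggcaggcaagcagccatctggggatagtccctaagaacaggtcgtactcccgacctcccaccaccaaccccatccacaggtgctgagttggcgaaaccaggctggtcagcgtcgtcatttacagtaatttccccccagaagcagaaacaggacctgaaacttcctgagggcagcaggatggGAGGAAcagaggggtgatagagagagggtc

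C1qc: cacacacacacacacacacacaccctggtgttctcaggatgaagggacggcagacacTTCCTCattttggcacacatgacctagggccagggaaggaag

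C3ar1: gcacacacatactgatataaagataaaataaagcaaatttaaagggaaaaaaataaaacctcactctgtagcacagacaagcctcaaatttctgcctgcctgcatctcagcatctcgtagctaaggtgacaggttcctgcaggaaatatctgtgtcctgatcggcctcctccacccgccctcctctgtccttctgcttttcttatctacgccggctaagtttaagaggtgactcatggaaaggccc

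The motif was found once in the stretches of *C1qb* and *C1qc*, and not in that of *C3ar1*, whose gene was also highest in myeloid classes. Of the 9 genes, 6 had an upstream entry, and 2 of the 6 held the motif within the 250 bases before the start, annotated exons included, where 23.3% of 32851 stretches of that length did. With so few stretches nothing is read from this share, and these are matches of letters, not measured sites.

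The C1q chains were by far the most abundant of the 9 genes, and microglia-like cells held the highest level of each in both regions. In cortical microglia-like cells *C1qa* stood at 9270, 10185 and 10392 CPM (9949 ± 597, SD, n = 3 technical replicates). *C1qb* stood at 9127, 9980 and 10107 CPM (9738 ± 533) and *C1qc* at 7027, 7101 and 7005 CPM (7044 ± 50.5). In hippocampal microglia-like cells *C1qa* reached 8837, 8997 and 8973 CPM (8936 ± 86.2), *C1qb* 8361 ± 120 CPM and *C1qc* 6452 ± 69.0 CPM. Replicates of a region lay close together, with the widest spread in cortical *C1qa*.

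Macrophage-like cells, which carry markers of the macrophages at brain borders such as *Mrc1* and *Pf4*, formed 1 cluster in each region. The cortical cluster was led by *H2-Eb1*. Its 10 leading genes also held *Cd74*, *H2-Aa* and *H2-Ab1*, genes of antigen presentation on MHC class II, and *Ccr2*, a gene of the monocyte marker list. None of these was among the leading genes of the hippocampal cluster, led by *Pf4* and *Mrc1*. Whether the cortical cluster also holds other myeloid cells was not tested. The macrophage-like class came next for *C1qa*, *C1qb* and *C1qc* in both regions, but at a different distance from microglia. In the cortex *C1qa* stood at 2850, 4438 and 5166 CPM in the 108 macrophage-like cells (4151 ± 1184). Microglia-like cells were 2.36-fold higher for *C1qa* (95% interval of the counts 2.28 to 2.45), 2.23-fold for *C1qb* and 2.31-fold for *C1qc*. *C1qb* had 4279 ± 1000 CPM and *C1qc* 2997 ± 552 CPM there, and replicate 1 was the lowest for each chain. In the hippocampus *C1qa* stood at 7613, 7497 and 7741 CPM in the 147 macrophage-like cells (7617 ± 122), *C1qb* at 6280 ± 298 CPM and *C1qc* at 5798 ± 154 CPM, and the folds fell to 1.18 (1.15 to 1.21), 1.33 and 1.11. Microglial and macrophage replicates did not overlap in either region. A gene was called highest in a class where that class exceeded the next at least 2-fold with replicates apart. By this rule 3 of the 9 genes, all C1q chains, were highest in cortical microglia-like cells, where 2.16% of 14373 genes were, and 0 in hippocampal microglia-like cells, where 1.92% of 15351 genes were. With cells classed by their own marker UMIs, or with the mean over cells in place of summed UMIs, the cortical count was 0.

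**Figure D1:**
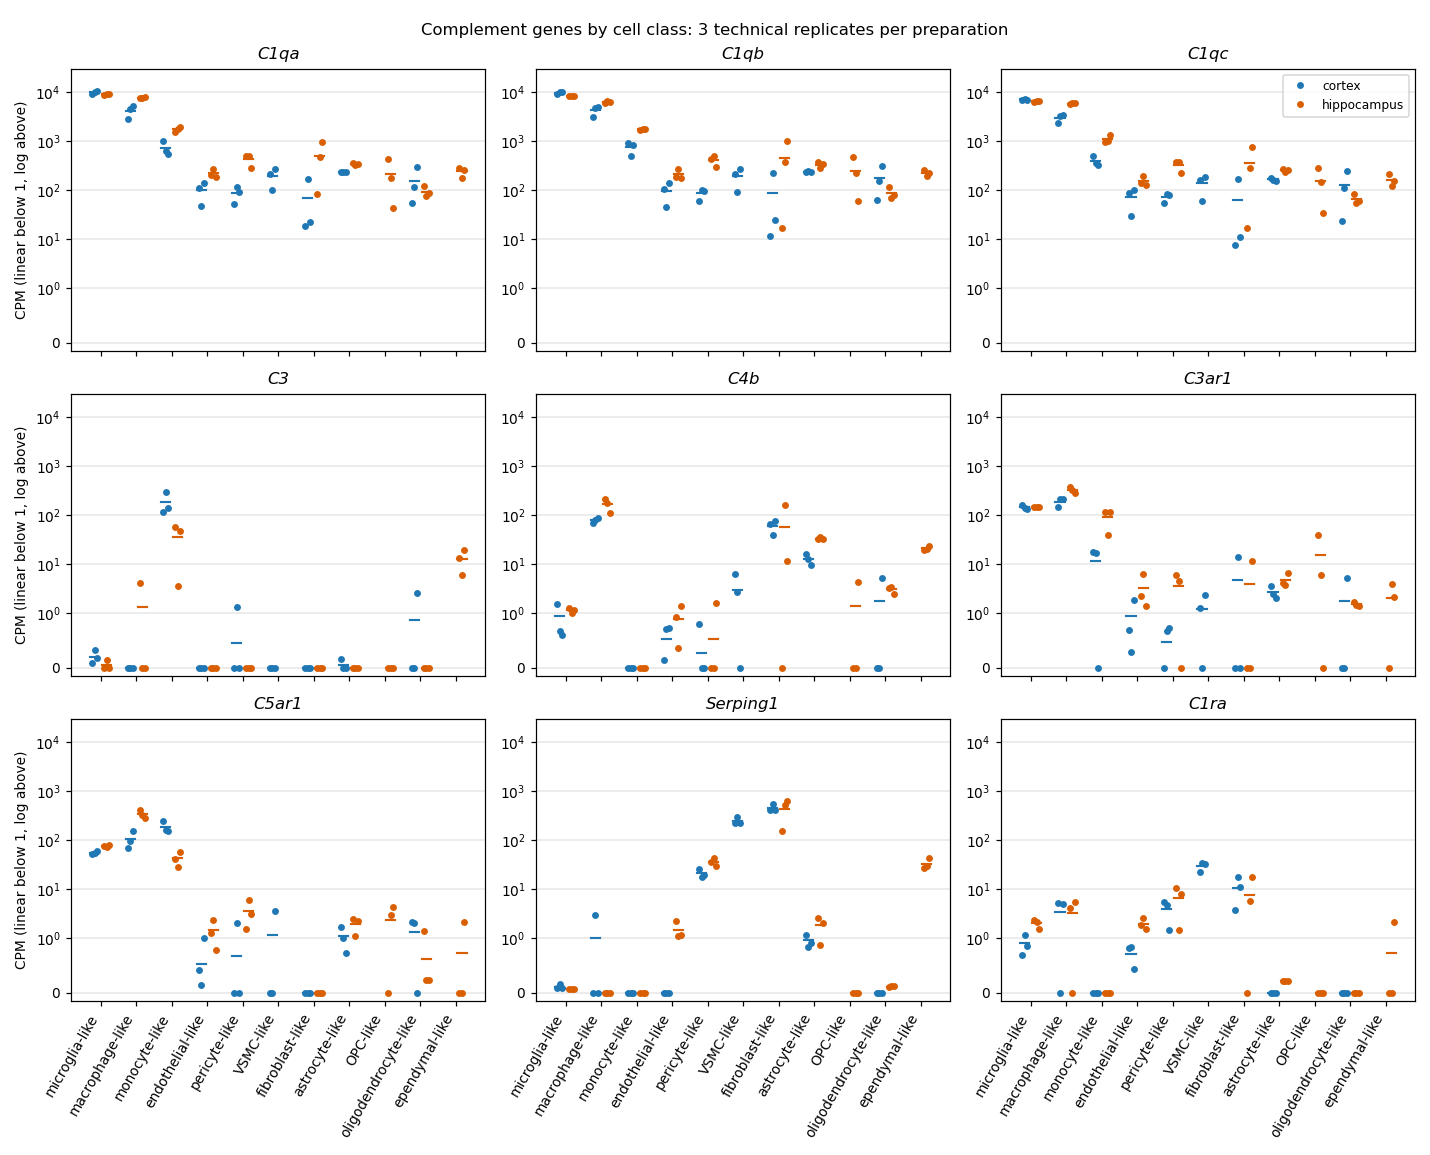
Level of each of the 9 complement genes by cell class and region in CPM (axis linear below 1 and logarithmic above), with points for the 3 technical replicates and lines for their mean. The C1q chains were highest in microglia-like cells, *C3* in monocyte-like cells and *Serping1* in fibroblast-like cells. No vascular smooth muscle (VSMC)-like class was named in the hippocampus, and no oligodendrocyte precursor (OPC)-like or ependymal-like class in the cortex.

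The 3 chains had similar proportions in the microglia-like cells of both regions. In cortical microglia-like cells *C1qa* made up 37.2%, *C1qb* 36.4% and *C1qc* 26.4% of the UMIs of the 3 chains, and in the hippocampus 37.6%, 35.2% and 27.2%. Cortical macrophage-like cells had 36.2%, 37.6% and 26.2%. Hippocampal macrophage-like cells departed most of these 4 groups, with 38.6% *C1qa*, 32.0% *C1qb* and 29.4% *C1qc*. After thinning every cell to 1000 UMIs, all 3 chains were found in 6055 of 6091 cortical (99.4%) and 5839 of 5889 hippocampal microglia-like cells (99.1%). In macrophage-like cells, whose clusters had unlike leading genes in the 2 regions, 70 of 93 cortical cells (75.3%, interval 65.2 to 83.6%) but 132 of 136 hippocampal cells (97.1%, 92.6 to 99.2%) held all 3, and 13 cortical cells against 0 hippocampal cells held none, where the exact interval for 0 of 136 reaches 2.68%. Without thinning, 84.3% of the cortical and 98.0% of the hippocampal macrophage-like cells held all 3 chains.

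**Figure D2:**
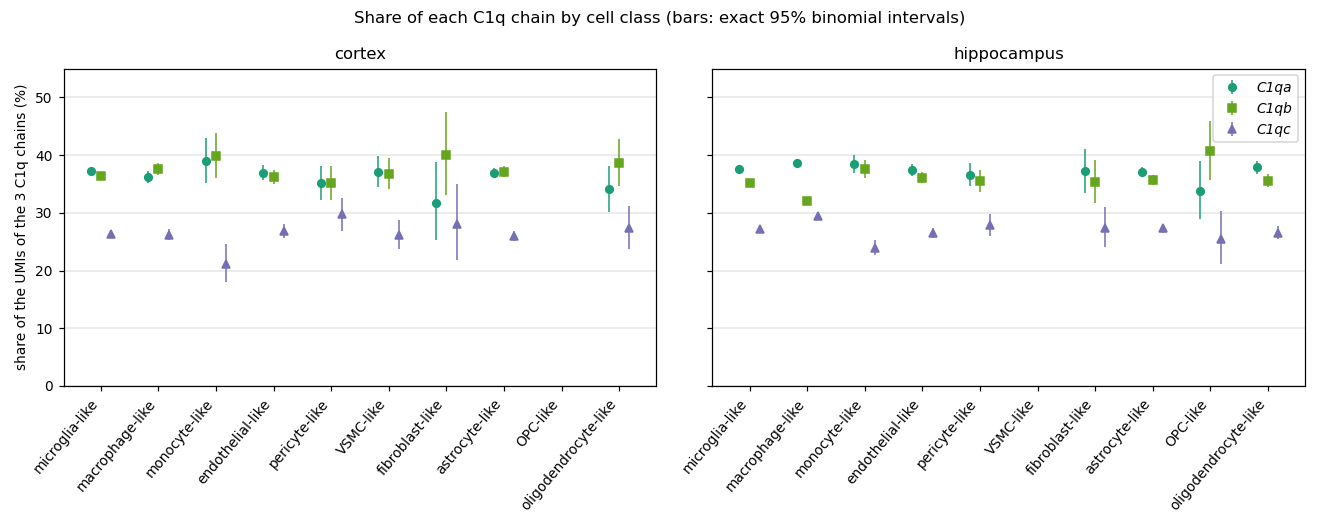
Share of each C1q chain in the summed UMIs of the 3 chains, in percent, by class and region, with exact 95% binomial intervals as bars. *C1qc* made up 26.4% in cortical and 27.2% in hippocampal microglia-like cells, and classes with few C1q UMIs had wide intervals. Empty positions are classes not named in that region.

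Monocyte-like cells held less C1q. The hippocampal class was a mixed cluster: *Nkg7*, *Ptprcap* and *Cd69*, genes of lymphocytes, were among its 10 leading genes beside *Plac8* and *Lyz2*. With cells classed by their own marker UMIs, only 35 hippocampal cells were monocyte-like, in place of 202. Over all hippocampal cells, 30 were then neutrophil-like and 30 T/NK-like. That rule needs at least 3 markers of a class in a cell, and the 202 cells had a median of 770.5 UMIs. How far depth lowered their count was not tested. In monocyte-like cells *C1qa* stood at 994.0, 621 and 554 CPM in the cortex, 7.26% of the microglial level, beside microglial markers at 9.68%. In the hippocampus it stood at 1566, 1759 and 1966 CPM, 19.7% of the microglial level (20.7% without shared barcodes), beside markers at 8.31%. *C1qc* made up 21.2% and 24.0% of the C1q UMIs of this class, less than in microglia-like cells.

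In glial and vascular classes the C1q chains were low and lay near the level of microglial marker RNA. In astrocyte-like cells *C1qa* stood at 231, 238 and 237 CPM in the cortex and 361, 331 and 341 CPM in the hippocampus. In endothelial-like cells it stood at 112, 47.2 and 140 CPM and at 199.7, 273 and 183 CPM. In pericyte-like cells it stood at 52.5, 113 and 90.8 CPM and at 500.5, 500.4 and 282 CPM. Hippocampal oligodendrocyte-like cells had the lowest level of these classes in their region, 93.5 ± 23.6 CPM, and the fibroblast-like replicates were far apart, from 84.0 to 938 CPM in the hippocampus and from 19.0 to 168 CPM in the cortex.

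The 11 microglial markers, among them *Tmem119*, *P2ry12* and *Cx3cr1*, gave a yardstick for these values, and none of the 11 was at 0 in any class named here. Their summed level in cortical astrocyte-like, endothelial-like and pericyte-like cells was 2.62%, 1.16% and 1.18% of that in microglia-like cells. *C1qa* in the same classes was 2.37%, 0.996% and 0.875% of its microglial level. In the hippocampus the markers stood at 3.91%, 2.68% and 5.16% and *C1qa* at 3.85%, 2.46% and 4.81%. Cortical erythroid-like cells had 15.9% of the markers and 16.0% of *C1qa*, that is 1590 CPM against the 722 CPM of monocyte-like cells. Of these erythroid-like cells 16.9% were called doublets, and the class also held 4916 CPM of endothelial and 1698 CPM of astrocyte markers. Cortical fibroblast-like cells had less *C1qa* (0.673%) than summed markers (2.11%). Single markers there ranged from 0.6635% to 15.37%, with a median of 0.977%. Macrophage-like cells departed from this match, with 8.31% of the markers but 42.4% of *C1qa* in the cortex, and 17.2% against 84.9% in the hippocampus.

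In astrocyte-like and endothelial-like cells, leaving out called doublets lowered both measures together. Complement genes and microglial markers were not left out when doublets were called. The joint fall is thus partly built in, and nothing is read from it. Astrocyte-like *C1qa* fell from 235.5 to 22.6 CPM in the cortex as the markers went from 2.62% to 0.413%, and from 344 to 79.2 CPM in the hippocampus as they went from 3.91% to 0.997%. Endothelial-like *C1qa* fell to 30.3 and 60.5 CPM with markers at 0.401% and 0.806%. In erythroid-like cells the markers went only from 15.87% to 13.75%. In fibroblast-like cells they went from 2.105% to 2.101% in the cortex and from 6.98% to 7.19% in the hippocampus. Thinned to 1000 UMIs, all 3 chains were found in 2.67% of cortical and 3.63% of hippocampal astrocyte-like cells, against 3.51% and 4.81% without thinning. How much of the *C1qa* signal in these classes is microglial RNA was not tested.

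**Figure D3:**
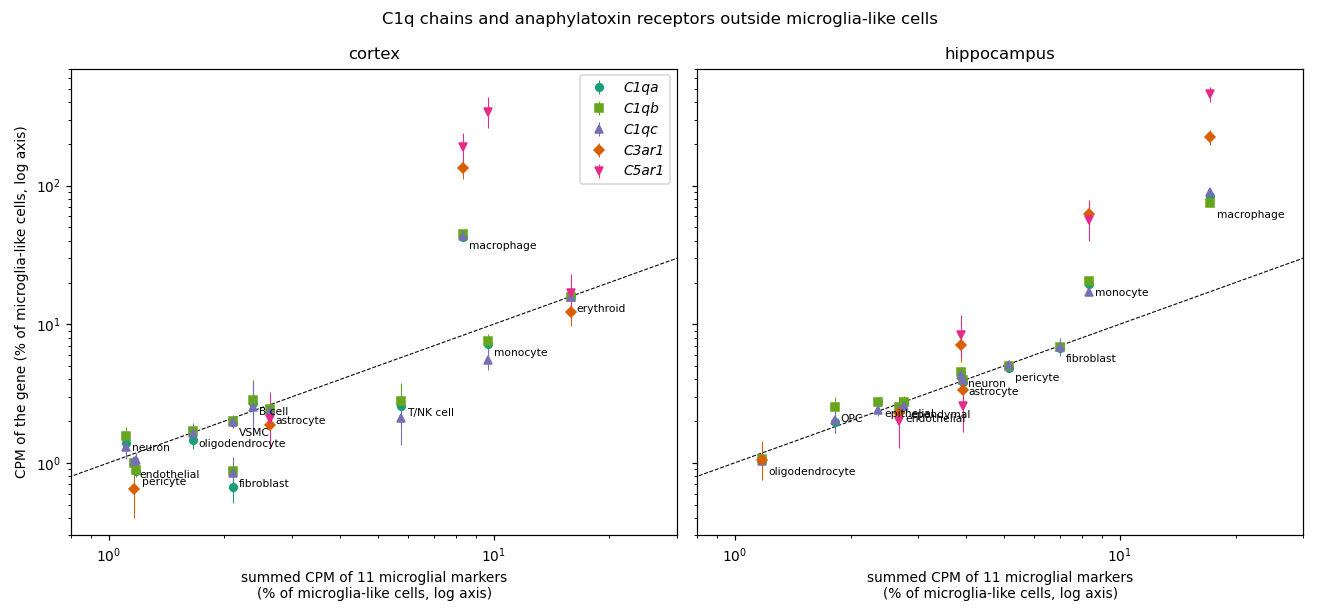
CPM of the C1q chains and of the receptors *C3ar1* and *C5ar1* in each class (vertical, log axis) against the summed CPM of 11 microglial markers (horizontal, log axis), both as a percentage of the level in microglia-like cells, with 95% counting intervals and a dashed line where both are equal. Most non-myeloid classes lie near the line for C1q, whereas macrophage-like cells have 42.4% and 84.9% of *C1qa* against 8.31% and 17.2% of the markers.

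*C1ra*, which encodes the protease C1r (chr6:124512405-124523443, plus strand), was found in another compartment than C1q. It was highest in cortical VSMC-like cells, with 22.6, 34.5 and 33.2 CPM (30.1 ± 6.55), and 61 of the 204 cells (29.9%) held a UMI. That was 2.74-fold above fibroblast-like cells (1.41 to 5.96), which had 10.8 ± 6.84 CPM, and the replicates were apart. *C1ra* was the 1 gene of the 9 called highest in VSMC-like cells, where 1.82% of genes were. In the hippocampus an unnamed cluster of 267 cells led by the smooth muscle genes *Tagln*, *Acta2* and *Myh11*, which also counted 10 endothelial markers, had 14.3, 11.7 and 7.75 CPM. Microglia-like cells had 0.910 ± 0.237 and 2.01 ± 0.422 CPM, so that in the cortex the chains of C1q and its protease were at their highest in different classes. Among named hippocampal classes *C1ra* was highest in fibroblast-like cells, at 9.85 CPM from only 4 UMIs. Pericyte-like cells followed at 6.64 CPM from 13 UMIs, with overlapping replicates, and no class was called highest there. *C1s1*, which encodes the partner protease C1s, was likewise highest in cortical VSMC-like cells (94.5 CPM). In the hippocampus it was highest among named classes in pericyte-like cells (29.6 CPM), a ranking that leaves out the unnamed smooth muscle cluster. *C1s2*, also of the C1 complex list, was listed for the cortex only. *C1rb*, near-identical to *C1ra*, was at 0 UMIs in the cortex and 1 UMI in the hippocampus, and reads shared between these copies cannot be placed.

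*C3*, the component on which all pathways meet (chr17:57203970-57228136, minus strand), was close to absent from microglia-like cells. They held 7 UMIs in 6 of 6166 cortical cells and 2 UMIs in 1 of 5912 hippocampal cells, or 0.200 and 0.0486 CPM over all UMIs. Endothelial-like and fibroblast-like cells had 0 UMIs in both regions. The floor of 3 counts is 0.141 CPM in cortical and 0.188 CPM in hippocampal endothelial-like cells. In fibroblast-like cells, which are few, it is much higher, at 3.29 CPM in the cortex and 7.38 CPM in the hippocampus. Astrocyte-like cells had 1 UMI and 0 UMIs. *C3* was highest in cortical monocyte-like cells, with 116, 302 and 138 CPM (185.6 ± 101), where 25 of 59 cells (42.4%) held it. Hippocampal monocyte-like cells had 58.2, 3.53 and 46.5 CPM (36.1 ± 28.8), and 32.9 CPM without shared barcodes. That class was the mixed cluster described above, and its cells had a median of 770.5 UMIs against 5129 in the cortex. Ependymal-like cells of the hippocampus followed with 12.9 ± 6.75 CPM, a class whose replicates overlapped those of the monocyte-like cells. *C3* was the 1 gene of the 9 called highest in cortical monocyte-like cells, where 1.42% of genes were. With complement genes kept in the clustering, no cortical monocyte-like class was named.

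*C4b*, which encodes C4 (chr17:34728380-34743882, minus strand), was spread over macrophage-like, fibroblast-like and astrocyte-like cells and was nearly absent from microglia-like cells. In macrophage-like cells it stood at 68.4, 79.1 and 86.6 CPM in the cortex and at 210.25, 180.45 and 112 CPM in the hippocampus. Fibroblast-like cells had 64.6, 38.5 and 77.5 CPM and then 0, 164 and 11.8 CPM, and overlapped macrophage-like cells in both regions. Astrocyte-like cells had 15.9, 12.6 and 9.84 CPM (12.8 ± 3.03) in the cortex and 32.0, 35.7 and 32.3 CPM (33.4 ± 2.03) in the hippocampus. Every hippocampal replicate was above every cortical one. Cells with a *C4b* UMI made up 5.24% and 14.3% of astrocyte-like cells, against 0.422% and 0.677% of microglia-like cells, all without thinning. After thinning the astrocyte-like shares were 0.784% and 2.82%.

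Called doublets hardly changed this, since without them astrocyte-like *C4b* was 13.3 and 34.9 CPM. Microglia-like cells had 0.948 ± 0.540 and 1.15 ± 0.118 CPM, about the level of endothelial-like cells (0.524 ± 0.335 and 0.891 ± 0.506). Within hippocampal microglia-like cells, the cluster of 154 cells led by the interferon-response genes *Ifi204* and *Mx1* had 11.2 CPM of *C4b* from 13 UMIs (5.99 to 19.2), and the other 4 clusters 0.395 to 1.36 CPM. The corresponding cortical cluster of 133 cells had 1 UMI. Hippocampal oligodendrocyte-like cells had 3.07 ± 0.547 CPM and ependymal-like cells 21.2 ± 2.26 CPM. *C4b* has a near-identical neighbour, *C4a*, and molecules of the pair cannot be told apart from these counts.

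The receptors were highest in the myeloid classes, though in another order than C1q. *C3ar1*, the C3a receptor gene (chr6:122847138-122856161, minus strand), stood at 158, 143 and 134 CPM in cortical and 148, 146 and 143.5 CPM in hippocampal microglia-like cells. Macrophage-like cells had 147, 209.9 and 209 CPM in the cortex, overlapping microglia, and 372, 319 and 279 CPM in the hippocampus, 2.24-fold above microglia with replicates apart (1.97 to 2.54). Monocyte-like cells followed in the hippocampus with 89.9 ± 44.2 CPM (96.2 CPM over all replicates without shared barcodes), while in the cortex they had 11.6 ± 10.0 CPM. A *C3ar1* UMI was found in 45.8% and 50.4% of microglia-like cells, and in 12.99% and 11.63% after thinning. Astrocyte-like cells held 1.87% and 3.33% of the microglial level, where the markers stood at 2.62% and 3.91%.

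*C5ar1*, the C5a receptor gene (chr7:16246743-16259540, minus strand), was lower in microglia than in the other myeloid classes of the cortex, where monocyte-like cells had 242, 159 and 157 CPM, macrophage-like cells 68.4, 97.3 and 153 CPM, and microglia-like cells 51.6, 54.3 and 59.0 CPM. All 3 classes were apart in that order, the first 2 narrowly. With complement genes kept in the clustering, no cortical monocyte-like class was named and the macrophage-like class held 168 cells. In the hippocampus macrophage-like cells led with 412, 321 and 285 CPM, 4.57-fold above the 75.5, 71.1 and 78.3 CPM of microglia-like cells (4.02 to 5.18). Monocyte-like cells had 42.5 ± 14.5 CPM there (43.8 CPM without shared barcodes). Both receptors were called highest in hippocampal macrophage-like cells, 2 of the 9 genes, where 0.958% of genes were.

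Among microglia-like clusters the receptors varied more than C1q. The clusters led by *Ccl4*, *Ccl3* and *Atf3*, chemokine and immediate-early genes, had the highest *C3ar1* in both regions. In the cortex this cluster of 675 cells had 209, 199 and 192 CPM, against 132 to 148 CPM in the other 4 clusters. In the hippocampus its counterpart of 911 cells had 223.5, 228 and 226 CPM, against 113 to 155 CPM. *C5ar1* was likewise highest there, at 69.8 CPM in the cortex and 101 CPM in the hippocampus, and lowest in the interferon-response clusters, at 34.7 CPM (22.8 to 50.4) and 44.1 CPM (32.8 to 58.0). *C1qa* ran the other way in the cortex, with 8294 CPM in the *Ccl4* cluster against 9794 to 10570 CPM elsewhere, and in the hippocampus with 8226 CPM against 8950 to 9550 CPM. These clusters were formed from the same cells, so that the values are descriptions.

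**Figure D4:**
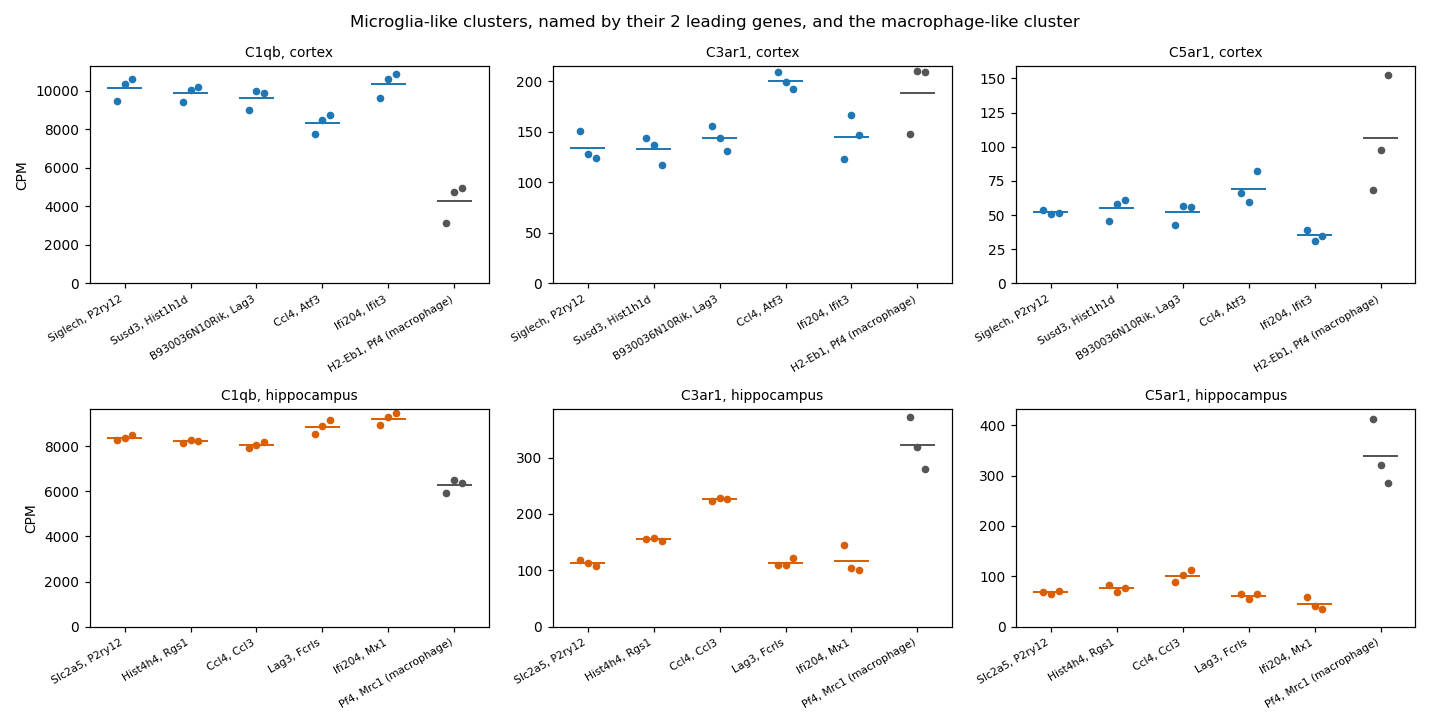
*C1qb*, *C3ar1* and *C5ar1* in CPM in the microglia-like clusters of each region, each named by 2 leading genes, and in the macrophage-like cluster, with points for the 3 technical replicates and lines for their mean. *C3ar1* was highest among microglia-like clusters in those led by *Ccl4* (192 to 209 CPM in the cortex and 223.5 to 228 CPM in the hippocampus).

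*Serping1* (chr2:84765387-84775444, minus strand) was highest in fibroblast-like and smooth muscle cells. Fibroblast-like cells had 410.1, 535 and 415 CPM in the cortex (453 ± 70.6), and 68 of the 77 cells (88.3%) held it. In the hippocampus the 49 fibroblast-like cells had 151, 524 and 626 CPM (434 ± 250), with 9 UMIs in replicate 1. VSMC-like cells of the cortex had 228, 296 and 225 CPM (250 ± 40.0), with a UMI in 187 of 204 cells (91.7%), or 22.7% after thinning against 39.0% of fibroblast-like cells. Fibroblast-like cells were 1.81-fold above them (1.60 to 2.06) and VSMC-like cells 11.8-fold above pericyte-like cells (9.44 to 15.0), each with replicates apart. In that comparison the cortical pericyte-like class also held much endothelial RNA.

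Pericyte-like cells, the other mural class, held more RNA of the 10 endothelial markers (13080 CPM) than of the 8 pericyte markers (11320 CPM) in the cortex, against 807 and 17550 CPM in the hippocampus. *Serping1* in this class stood at 26.2, 17.6 and 19.8 CPM in the cortex and 35.2, 42.9 and 30.2 CPM in the hippocampus. The hippocampal cluster led by smooth muscle genes lay between, at 109.7, 99.9 and 83.7 CPM. Endothelial-like cells, directly beside these in the vessel wall, had 0 UMIs in the cortex, where the floor of 3 counts is 0.141 CPM, and 24 UMIs in the hippocampus (1.50 ± 0.640 CPM). Neuron-like and ependymal-like cells of the hippocampus had 31.2 ± 4.02 and 33.3 ± 8.91 CPM. Microglia-like cells held 4 and 3 UMIs. *Serping1* was the 1 gene of the 9 called highest in hippocampal fibroblast-like cells, where 1.01% of genes were, and 14.1-fold above pericyte-like cells (10.7 to 18.8). This call compares named classes only, and so leaves out the hippocampal cluster led by smooth muscle genes. In the cortex, where a VSMC-like class was named, *Serping1* was not called highest in any class.

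Between the preparations, microglia-like cells changed little. A gene was called here at a 2-fold difference with replicates apart and at least 20 UMIs over both. On the log2 scale of the CPM ratio, hippocampus over cortex, *C1qa* was lower by a ratio of -0.16 (-0.16 to -0.15), *C1qb* of -0.22 and *C1qc* of -0.13, small shifts with replicates apart, where the median of all 13419 genes tested was 0.12. *C3ar1* differed by 0.01 (-0.04 to 0.07) with overlapping replicates, and *C5ar1* was higher by 0.45 (0.36 to 0.53). *C1ra* was called higher (1.14, 0.54 to 1.78) from 32 and 83 UMIs, with 0.698, 1.17 and 0.867 CPM against 2.37, 2.11 and 1.54 CPM, and was not called without replicate 1 of each preparation (0.86). So 1 of the 7 genes with enough UMIs was higher, where 4.43% of genes were, and 0 were lower, where 2.27% were.

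In macrophage-like cells *C5ar1* was higher in the hippocampus by 1.71 on the log2 scale (1.33 to 2.09) and *C4b* by 1.15 (0.69 to 1.63), which makes 2 of 6 genes tested, where 9.0% of 7068 genes were higher, and 0 of 6 were lower, where 3.82% were. *C1qa*, *C1qb* and *C1qc* were higher by 0.85, 0.53 and 0.92 and *C3ar1* by 0.76, all with replicates apart and short of the 2-fold line. The microglial markers in this class stood at 8.31% and 17.2% of the microglial level, and the 9 macrophage markers at 7390 and 12700 CPM. *Itgax*, the integrin chain of complement receptor 4, stood at 35.0 CPM in the cortical cluster and at 0 UMIs in the hippocampal one. The part of these markers and of the unlike clusters in the values was not tested.

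In astrocyte-like cells *C4b* was higher in the hippocampus by 1.38 on the log2 scale (1.14 to 1.61), the 1 gene called of 7 tested, where 6.49% of 13430 genes were higher, and 0 were lower, where 3.47% were. *C1qa*, *C1qb* and *C1qc* were higher by 0.55, 0.48 and 0.61, beside markers that went from 2.62% to 3.91%. Without called doublets they were higher by 1.81, 1.58 and 1.73 and were called, which made 4 genes, with markers at 0.413% and 0.997%. The doublet calls used the C1q genes themselves, so nothing is read from these values. The astrocyte-like classes also differed in quality: 862 of 2708 cortical and 1262 of 1975 hippocampal cells had under 10% mitochondrial UMIs. In endothelial-like cells 5 of 8 genes were called higher, where 7.7% of 12753 genes were, and 0 lower, where 2.64% were. The 5 were *C1qa* (1.15), *C1qb* (1.12), *C1qc* (1.11), *C1ra* (1.51, from 15 and 32 UMIs) and *Serping1*, for which no fold is given since the cortex had 0 UMIs. Marker RNA rose from 1.16% to 2.68% in this class. The C1q differences rested on 1 hippocampal cluster of 270 endothelial-like cells with a median of 1438 UMIs, of which 24.8% were called doublets and which had 2267 CPM of *C1qa*. A cortical cluster of few UMIs with endothelial markers (331 cells, 2823 CPM) stayed unnamed. With clusters of few UMIs left out, *C1qa*, *C1qb* and *C1qc* differed by 0.16, 0.12 and 0.11, with microglial markers at 1.16% and 1.42%. *C1ra* and *Serping1* remained called. Without replicate 2 of each preparation the count was 1. With all clusters kept, fibroblast markers stood at 2.73 CPM in cortical and 13.75 CPM in hippocampal endothelial-like cells. VSMC markers stood at 33.8 and 80.7 CPM and pericyte markers at 334 and 465 CPM. The part of such RNA in *C1ra* and *Serping1* was not tested.

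In pericyte-like cells the 3 C1q chains were higher by 2.30, 2.26 and 2.15, 3 of 5 genes tested, where 9.36% of 11043 genes were higher, and 0 were lower, where 10.2% were. Microglial markers went from 1.18% to 5.16%. *Serping1* was higher by 0.79 (0.32 to 1.26), with replicates apart and under 2-fold. These values rest on the cortical class with more endothelial than pericyte marker RNA. At a clustering resolution of 1.0, which left 166 cortical pericyte-like cells, the chains differed by 1.29, 1.58 and 1.45 and were not called, and *Serping1* differed by -0.49. With cells classed by their own marker UMIs the chains differed by 0.60, 0.58 and 0.52, also without a call. *Cd93*, a receptor of endothelial cells, stood at 276 CPM in cortical and 3.58 CPM in hippocampal pericyte-like cells, and the part of RNA from other cells in the pericyte values was not tested. In fibroblast-like cells *Serping1* (0.18, -0.07 to 0.43) and *C4b* (0.31, -0.37 to 0.97) overlapped between the regions. *C1qa*, *C1qb* and *C1qc* differed there by 3.18, 2.77 and 2.91, also with overlapping replicates, beside microglial markers at 2.11% and 6.98%. Of 5 genes 0 were called, where 5.34% of 7550 genes were higher and 3.81% lower. Oligodendrocyte-like cells went the other way for the chains, at -0.62, -0.89 and -0.81, with overlapping replicates. Again 0 of 5 were called, where 3.98% of 12289 genes were higher and 9.23% lower.

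**Figure D5:**
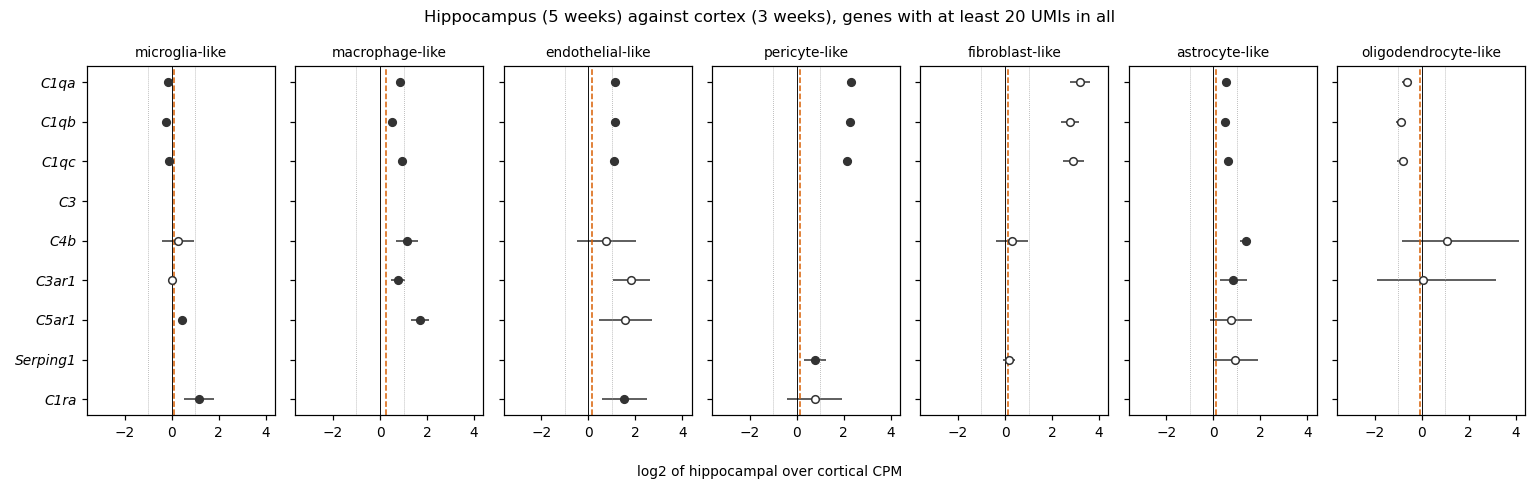
Log2 ratio of hippocampal over cortical CPM for each gene with at least 20 UMIs in 7 cell classes, with 95% counting intervals. *Serping1* in endothelial-like cells, called higher with 0 cortical and 24 hippocampal UMIs, has no finite ratio and is not drawn. Filled points have replicates apart and open points overlapping ones, dotted lines mark 2-fold and the dashed line the median of all genes tested. C1q is near 0 in microglia-like cells and higher in endothelial-like (1.15 for *C1qa*) and pericyte-like cells (2.30), while *C4b* is higher in macrophage-like (1.15) and astrocyte-like cells (1.38).

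The wider complement list held 56 genes, of which 53 were listed in both preparations and 32 reached 20 CPM in some class of either region, where 47.1% of all 27514 genes did. Of the C1 complex 5 of 6 genes reached this level, of the central components 3 of 3, of the membrane regulators 9 of 11 and of the receptors 6 of 8. Of the lectin pathway 3 of 9 genes did, of the fluid regulators 4 of 6, of the alternative pathway 1 of 3 and of the terminal components 1 of 7. The terminal component was *Hc*, which encodes C5, at 33.9 CPM in ependymal-like cells.

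Macrophage-like cells were also the highest class, in both regions, for *C2* (47.5 and 114 CPM), for *Fcna* (54.5 and 89.6 CPM), a recognition molecule of the lectin pathway, and for *Cfp* (238 and 160 CPM), the stabiliser properdin. Of the fluid regulators, *Clu*, an inhibitor of the terminal complex, was highest in astrocyte-like cells (5849 and 6420 CPM). *Vtn*, another such inhibitor, was highest in pericyte-like cells (6244 and 21800 CPM). Of the membrane regulators, *Cr1l* was highest in endothelial-like cells (171 and 184 CPM). Pericyte-like cells came next (141 and 122 CPM), and *Cr1l* was not called in either region. *Csmd1*, *Csmd2* and *Susd4* were highest in cortical oligodendrocyte-like (41.4, 35.5 and 67.2 CPM) and hippocampal OPC-like cells (195, 102 and 77.6 CPM). No OPC-like class was named in the cortex, although 52 cortical cells were OPC-like by their own marker UMIs. *C5ar2*, the second receptor of C5a, was highest in microglia-like cells (95.8 and 107 CPM), unlike *C5ar1*. Not all of these passed the rule for calling a highest class. *C2*, *Cfp* and *Vtn* were not called in the cortex, nor *Clu* and *C5ar2* in the hippocampus. *Fcna* had too few cortical UMIs to be tested.

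Over 25 points, each a class in a preparation, the genes outside the list with the levels most like each member were found by Pearson correlation of log2(CPM + 5) among 13104 genes. The points share libraries and differ in cell number, so that these are descriptions. *Hpgds* was the closest for each C1q chain (0.98), followed by *Fcgr1*, an Fc receptor, for *C1qa* and *C1qb*. The chains resembled each other at 0.997 to 0.999. *Hp*, which encodes haptoglobin, was closest to *C3* (0.97) and *Hk3* to *C5ar1* (0.967). *Serping1* was closest to the basement membrane collagen gene *Col4a5* (0.928), and *C4b* to *Igf1* at a lower value (0.859). *C1ra* was closest to the tropomyosin gene *Tpm2* (0.928). *Tpm2* is in the marker list that named the VSMC-like class, so its high level there was fixed by the naming.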

How the data were processed

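The authors dissociated the tissue of each mouse with papain, dispase II and DNase I, removed myelin, then pooled the cells of 3 mice per preparation and ran the suspension as 3 technical replicates on the 10x Genomics platform. They deposited raw UMI counts per gene and barcode, without normalization. The submitters' processing notes name Cell Ranger 5.0.1 and mm10, whereas the matrix headers name 3.0.1 (cortex, 31053 genes) and 3.1.0 (hippocampus, 27998 genes).

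From these counts, cells with 250 to 6000 genes and under 25% mitochondrial UMIs were kept, and each preparation was integrated and clustered in Seurat 5.3.0 (R 4.3.3; genes in at least 3 cells, 2000 variable genes, 30 components, resolution 0.5), leaving complement genes out. A cluster was named with at least 3 markers found in 20% of its cells and 2-fold above the other cells, unless its 10 leading genes held more markers of another class, or its median UMI count was low and none of its markers was among them. Doublets were called with Scrublet (scanpy 1.11.5) at 0.8% per 1000 barcodes, without leaving complement genes out, and kept. Medians per library were 5800 to 6914 UMIs.

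CPM was computed from summed UMIs in Python 3.11.15 (numpy 2.4.6, scipy 1.17.1, pandas 2.3.3, matplotlib 3.10.9) for classes of at least 20 cells, with exact Poisson, Clopper-Pearson or conditional binomial intervals at 95%. These cover counting error only, as the floor of 3 counts does. The highest class was called for genes with at least 50 UMIs. The scripts were tested on simulated data. The 9 genes, the lists and the named genes (complement genes reaching 20 CPM and the 3 genes most like each member, among genes of at least 100 UMIs) were chosen with earlier results of these data known. Prep 2 was not analysed here. The 13 alternatives tried include leaving out each replicate.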

Additional observations from a re-analysis of the deposited data

Results flagged for a closer look

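The C1q chains moved in opposite directions between the preparations, which is why they stand here. On the log2 scale of the CPM ratio, hippocampus over cortex, every replicate of microglia-like cells was lower (*C1qa* -0.155, *C1qb* -0.221, *C1qc* -0.127). In endothelial-like cells every replicate was higher (*C1qa* 1.147, *C1qb* 1.124, *C1qc* 1.112), and likewise in astrocyte-like cells (*C1qa* 0.548, *C1qb* 0.481, *C1qc* 0.61). The difference between the classes was not tested. With clusters of few UMIs left out, the endothelial-like values were 0.16, 0.12 and 0.11, no longer called, with microglial markers at 1.16% and 1.42%. Without called doublets the astrocyte-like values were 1.81, 1.58 and 1.73, but the doublet calls used the C1q genes and nothing is read from this. Beside the first values, the summed microglial markers went from 1.16% to 2.68% of the microglial level in endothelial-like cells and from 2.62% to 3.91% in astrocyte-like cells.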

How the results depend on the processing

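The analysis was repeated under 13 alternatives. Over the alternatives, 440 values of differences between preparations were computed. Of these, 388 had the same outcome as with the main settings, called or not called. A call was lost in 22, gained in 30 and reversed in 0. The count of 3 genes highest in cortical microglia-like cells was 0 with cells classed by their own marker UMIs and 0 with the mean over cells, and the hippocampal count was 0 under all alternatives. The count of 5 in endothelial-like cells was 1 with own marker UMIs and 2 with clusters of few UMIs left out, an alternative chosen after seeing the data, and 1 to 6 on leaving out a replicate (1 without replicate 2, where *C1qa* differed by 0.61). The count of 1 in astrocyte-like cells was 4 without called doublets (*C1qa* 1.81, *C1qb* 1.58, *C1qc* 1.73), 3 with the mean over cells, and 1 to 2 on leaving out a replicate. Nothing is read from the count of 4, since the doublet calls used the C1q genes. The count of 1 in microglia-like cells was 3 with the mean over cells and 0 to 1 on leaving out a replicate. With a mitochondrial limit of 10%, cortical astrocyte-like *C1qa* stood at 539 CPM in place of 235.5 CPM, and the microglial markers at 5.83% in place of 2.62%. This limit kept 862 of 2708 cortical and 1262 of 1975 hippocampal astrocyte-like cells. The cause was not tested in any of these cases. Classes of few cells limit the depth, such as the 49 hippocampal fibroblast-like cells. No paired analysis was possible because no result comes from a test and a replicate number marks a technical run within a preparation.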
